A study of Homo sapiens with 4 samples.

Results

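The peaks of 3 zinc-finger gene clusters of chromosome 19 were examined in CLIP-seq of SAF-A (scaffold attachment factor A, also called hnRNP U). CLIP-seq crosslinks RNA to protein with ultraviolet light and sequences the RNA recovered with that protein. The cells were HCT116, an established human colorectal carcinoma line, and no treatment or genetic change is given in the labels. Pull-downs with a SAF-A antibody (2 samples) were set against inputs (2 samples), which were taken from cleared lysate before the pull-down and cut from the same size range of the membrane. The labels do not say that replicates came from separate cultures, and the spread behind every p-value here may therefore be technical. Each sample has its own peak list, with 96061 and 111256 peaks in pull-down replicates 1 and 2, against 29386 and 42256 in input replicates 1 and 2. Read depth is unknown, because the lists hold peaks and not reads.

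A peak was a member if it lay on chromosome 19 with its midpoint from 19800000 to 24600000, from 52400000 to 54000000, or from 56500000 to 59128983. These are GRCh37 positions, and the intervals are called 19p12, 19q13.41 and 19q13.43 here. They held 559, 213 and 323 peaks over the 4 lists, 1095 of 278959 in all, while the rest of chromosome 19 held 7769. Further zinc-finger genes of the chromosome were not looked for, and any outside these intervals count with the rest of it. The build was checked on the chromosome itself. In the 19q13.43 cluster, 23 and 35 peaks of the pull-down lists, against 28 and 27 of the input lists, ended beyond the last base that chromosome 19 has in GRCh38, the build that the submitters' processing notes name. None of the 4 lists held a chromosome 19 peak past its GRCh37 end at 59128983, and 0 peaks lay in the GRCh37 centromere gap. No gene table of that build was used, so no peak is assigned to a gene.

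Zinc-finger genes of the KRAB class encode proteins that bind DNA through a row of zinc fingers and recruit the corepressor TRIM28, which brings in histone H3 lysine 9 methylation. Many of them silence retrotransposons. The genes arose by repeated tandem duplication and lie side by side in clusters, with neighbouring copies close in sequence. In the RefSeq gene table (GRCh38.p14, used for names and gene order only), 250 of 517 protein-coding genes with a ZNF symbol were on chromosome 19. The short-arm run from ZNF506 to ZNF254 and including ZNF91, ZNF43 and ZNF208, held 37 protein-coding genes, of which 35 had a ZNF symbol. The 19q13.41 cluster is known for ZNF83, ZNF28 and ZNF160, and the 19q13.43 cluster for the imprinted gene PEG3, for ZNF264 and, close to the chromosome end, for TRIM28 itself. SAF-A binds RNA in the nucleus and has been described as a scaffold that ties nascent and noncoding RNA to chromatin.

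The first comparison asked how densely each cluster was covered in the pull-downs and the inputs. Per 10000 listed peaks, the group means of both pull-downs and inputs were lower in the clusters than outside them, by more in the inputs. Pull-down replicate 2 in 19q13.41 was the exception among single libraries. In 19p12 the density was 4.10 and 3.89 peaks per Mb per 10000 listed peaks in the pull-downs, against 5.39 and 4.24 in the inputs. In 19q13.41 it was 4.29 and 5.17 in the pull-downs, against 5.10 and 4.59 in the inputs, and the groups overlapped. In 19q13.43 it was 3.84 and 4.07 in the pull-downs, against 6.08 and 5.40 in the inputs. The rest of the chromosome stood apart in the inputs, with 4.74 and 4.97 in the pull-downs against 9.33 and 8.77 in the inputs. Thus the pull-down density of 19p12, 19q13.41 and 19q13.43 was 0.824 ± 0.058, 0.973 ± 0.094 and 0.814 ± 0.006 of that outside the clusters, while the input density was 0.531 ± 0.067, 0.535 ± 0.017 and 0.634 ± 0.026 of it (SD, n = 2 each). These 3 pairs of values did not overlap between the groups. The two-sided exact permutation p was 0.33 for each, the smallest that 2 against 2 samples allow.

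**Figure D1:**
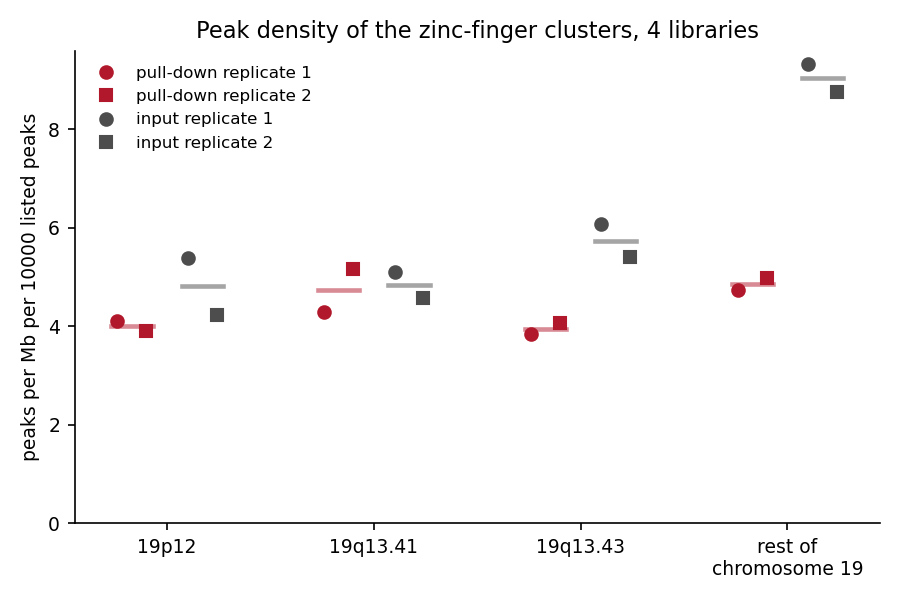
Peaks per Mb per 10000 listed peaks (y axis) in the 3 zinc-finger clusters and in the rest of chromosome 19 without the centromere gap (x axis). Points are libraries, red for pull-downs and grey for inputs, with circles for replicate 1, squares for replicate 2 and bars for group means. The pull-down means lie between 3.95 and 4.86 in all 4 intervals, and the input mean is 9.05 outside the clusters.

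All 3 clusters together took 0.366% (95% Wilson interval 0.330 to 0.407) and 0.377% (0.342 to 0.414) of the pull-down lists, against 0.500% (0.426 to 0.588) and 0.419% (0.362 to 0.485) of the input lists. They made up 14.1% and 13.9% of the chromosome 19 peaks in the pull-downs, against 10.2% and 9.23% in the inputs. Wilson intervals here and later cover counting error only, and neighbouring peaks are not independent.

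The clusters were then tested as whole regions in a limma fit across the genome, which was cut into 1 Mb regions apart from them. The fitted value was the log2 number of peaks in a region per 10000 peaks of the list. In this fit 27.1% of 2769 regions were called at an adjusted p of 0.05, with 11.1% lower and 16.0% higher in the pull-downs. Over all regions the median log2 ratio was 0.11. The 19p12 cluster was not called, at a log2 ratio of -0.26 (SE 0.19, adjusted p = 0.306), and neither was 19q13.41, at -0.06 (SE 0.17, adjusted p = 0.843). The 19q13.43 cluster was lower in the pull-downs, at -0.54 (SE 0.17, adjusted p = 0.0179). That call was lost without pull-down replicate 1 (log2 ratio -0.50, adjusted p = 0.179) and without pull-down replicate 2 (-0.58, adjusted p = 0.0837), and 19p12 was called lower without input replicate 2 (-0.44, adjusted p = 0.0210). In the rest of chromosome 19 the group means gave a log2 ratio of -0.90, with 2.23% and 2.34% of the pull-down lists against 4.38% and 4.12% of the input lists.

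To test the clusters against the rest of their own chromosome, each region of the genome was divided by the other peaks of its chromosome in a second limma fit. Here 24.0% of 2768 regions were called, 370 higher and 293 lower in the pull-downs. Relative to the rest of chromosome 19, the pull-downs were higher in 19p12, at a log2 ratio of 0.60 (SE 0.16, adjusted p = 0.0127), and in 19q13.41, at 0.79 (SE 0.16, adjusted p = 0.00244). The log2 ratio of 19q13.43 was 0.30 (SE 0.15, adjusted p = 0.181), which was not called. Calls of this fit depended on peak width. Among peaks under 50 bases, 19p12 was at 0.13 (adjusted p = 0.640) and 19q13.43 at -0.05 (adjusted p = 0.908), while 19q13.41 stayed at 0.66 (adjusted p = 0.0390). Among peaks of at least 50 bases, 19p12 was at 1.66 (adjusted p = 9.17e-04) and 19q13.43 at 0.98 (adjusted p = 0.0143), and 19q13.41 had too few to be fitted. The 19p12 call was lost with a minimum score of 20 (log2 ratio 0.44, adjusted p = 0.166) and without pull-down replicate 1 (0.53, adjusted p = 0.165), and the 19q13.41 call without pull-down replicate 2 (0.69, adjusted p = 0.0767). Multi-copy genes lie close together in these clusters, how reads with several matches were placed is not given in the sources used here, and its part in these values was not tested.

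The clusters were not uniform inside. Of the 11 regions of 1 Mb with a midpoint in a cluster, 3 were lower and 1 was higher in the pull-downs in limma, against 31 lower and 1 higher of 46 in the rest of the chromosome. Over the genome, 27.0% of 2776 such regions were called, with 11.1% lower and 15.9% higher. In lists cut to equal length, which leaves fewer peaks, limma called none of the regions in the clusters and 19 lower in the rest of the chromosome. The median log2 ratio was -0.17 in the clusters, -0.74 in the rest of chromosome 19 and 0.11 over all regions. The called higher region ran from 21000001 to 22000000, in the middle of 19p12. It listed 36 and 45 peaks in the pull-downs, against 7 and 10 in the inputs, a log2 ratio of 0.65 (SE 0.20, adjusted p = 0.0139), and it was not called when either pull-down was left out. On either side of it, the regions from 20000001, 22000001 and 23000001 were near equality, at -0.01 (SE 0.20), -0.17 (SE 0.18) and -0.06 (SE 0.18). Their peak numbers were 32 and 34, 34 and 40, and 51 and 55 in the pull-downs, against 10 and 12, 12 and 16, and 17 and 20 in the inputs.

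The last region of 19p12, from 24000001 to 25000000 and next to the centromere gap, was different. It listed 28 peaks in each pull-down and 26 and 25 in the inputs, a log2 ratio of -1.42 (SE 0.19, adjusted p = 8.4e-07). In 19q13.41, the region from 52000001 was at -0.43 (SE 0.19, adjusted p = 0.0956) and that from 53000001 at 0.38 (SE 0.18, adjusted p = 0.110), and neither was called. In 19q13.43, the regions from 57000001 and 58000001 were at 0.20 (SE 0.22) and -0.21 (SE 0.17) and were not called. Peak numbers there were 33 and 27, and 51 and 69, in the pull-downs, against 6 and 12, and 19 and 28, in the inputs. Like those from 24000001 and 52000001, the region from 56000001 lies partly outside its cluster. It was at -0.73 (SE 0.18, adjusted p = 0.00237), with 34 and 47 pull-down peaks against 20 and 25 input peaks. The largest difference of the 11 was in the last region of the chromosome, from 59000001, with 2 and 7 pull-down peaks against 17 and 14 input peaks and a log2 ratio of -3.43 (SE 0.41, adjusted p = 7.8e-08).

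**Figure D2:**
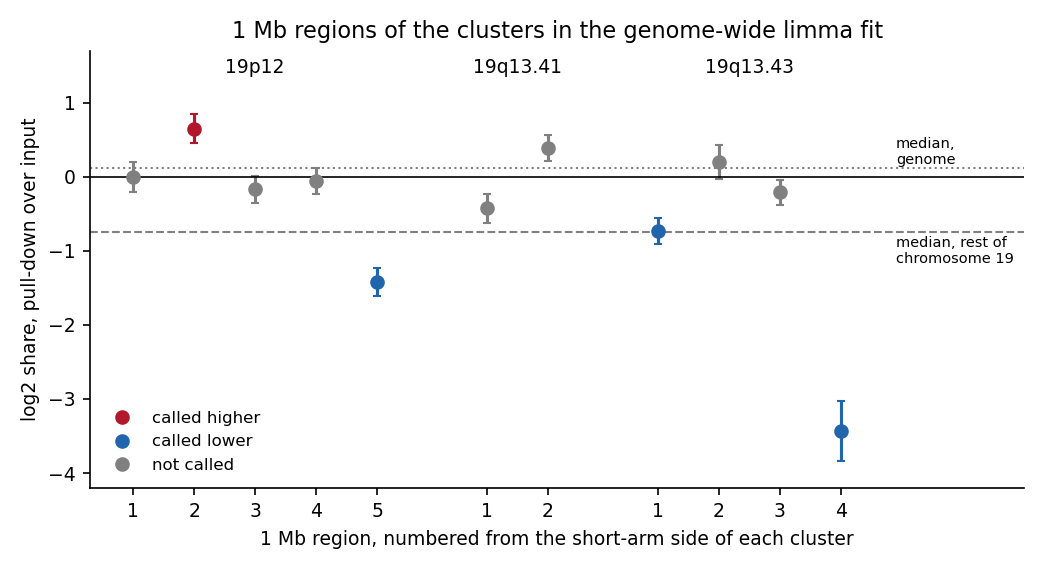
Log2 ratio of the share of listed peaks, pull-down over input (y axis), of the 11 regions of 1 Mb with a midpoint in a cluster (x axis, numbered along the chromosome within each cluster), with SE bars from limma. Red marks a called higher and blue a called lower region, and dashed and dotted lines give the medians of the rest of chromosome 19 (-0.74) and of all regions (0.11). The lowest points are the last regions of 19p12 and of 19q13.43, at -1.42 and -3.43, and the latter is cut short by the chromosome end.

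At a finer scale, 9 regions of 250 kb in the clusters reached the minimum mean of 10 peaks, and 4 of them were lower and 0 higher in limma. These numbers depended on the minimum. With no minimum 7 were lower and 3 higher, and with a mean of at least 20 peaks 1 was lower and 0 higher. Without input replicate 1, 2 were lower and 1 higher, and without input replicate 2, 3 were lower and 1 higher. With all samples and the minimum of 10, no region of the clusters had an unadjusted limma p under 0.05 beyond the 4 called lower. Over the genome, 44.0% of 1394 regions of this size were called, with 33.6% lower and 10.4% higher, and their median log2 ratio was -0.30. The called region with the lowest ratio was the chromosome end from 59000001, at -3.43 (SE 0.40). It holds the same peaks as the last 1 Mb region and likewise met the minimum only through its input peaks. It was followed by the region from 24000001 to 24250000, at -1.62 (SE 0.24, adjusted p = 1.0e-06), with 21 and 24 peaks in the pull-downs against 23 and 24 in the inputs. The other called regions were those from 52500001 to 52750000, at -1.30 (SE 0.28, adjusted p = 1.93e-04), and from 58750001 to 59000000, at -0.98 (SE 0.26, adjusted p = 0.00203).

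Many of the input peaks beside the centromere lay on the minus strand of a 6 kb stretch, from 24182000 to 24188000. It is the 6 kb with the most input peaks in any cluster and was chosen for that after its values had been seen, so its values are given without a test. It held 9 and 11 peaks in the pull-downs, against 19 and 15 in the inputs, and 0 peaks on the plus strand in any list. All of its peaks lay within 4491 bases. It made up 4.76% and 5.29% of the 19p12 peaks in the pull-downs, against 25.0% and 17.4% in the inputs. Per 10000 listed peaks this was 0.963 ± 0.037 in the pull-downs, against 5.01 ± 2.06 in the inputs (SD, n = 2 each), which was 5.20 times higher in the inputs. The stretch was not devoid of pull-down signal. The 2 sites of 19p12 listed in all 4 libraries with the best mean rank by score lay in it, at 24184094 to 24184179 and 24184613 to 24184800. The first ranked 830 and 1409 in the pull-downs, against 66 and 162 in the inputs, and the second 217 and 3932 in the pull-downs, against 508 and 124 in the inputs. All 9 sites present in both pull-downs also overlapped a peak in each input, while 5 of the 14 sites present in both inputs had no pull-down peak.

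Without this stretch, the region from 24000001 listed 19 and 17 peaks in the pull-downs, against 7 and 10 in the inputs, a log2 ratio of -0.50. The share of the whole 19p12 cluster then had a log2 ratio of 0.00, and relative to the rest of the chromosome it was at 0.87. The choice of the stretch by its input peaks fixes the direction of these shifts, and no test is given.

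The second such stretch was the last 229 kb of the chromosome, from 58900000, also chosen after its values had been seen and given without a test. It held 8 and 14 peaks in the pull-downs, against 24 and 22 in the inputs, or 8.25% and 11.8% of the 19q13.43 peaks in the pull-downs against 51.1% and 36.7% in the inputs. On the plus strand alone it held 5 and 9 peaks in the pull-downs, against 20 and 18 in the inputs. Per 10000 listed peaks it took 1.05 ± 0.30 in the pull-downs, against 6.69 ± 2.09 in the inputs (SD, n = 2 each), which was 6.395 times higher in the inputs. The median score of its peaks was 22 and 15 in the pull-downs, where the whole lists had 19 each. In the inputs it was 14 in each, where the whole lists had 17 each. Without it, the log2 ratio of the 19q13.43 cluster was 0.14 as a share of the list and 0.98 relative to the rest of the chromosome. A rise is what leaving out peaks chosen for high input numbers gives, so these values are a description.

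**Figure D3:**
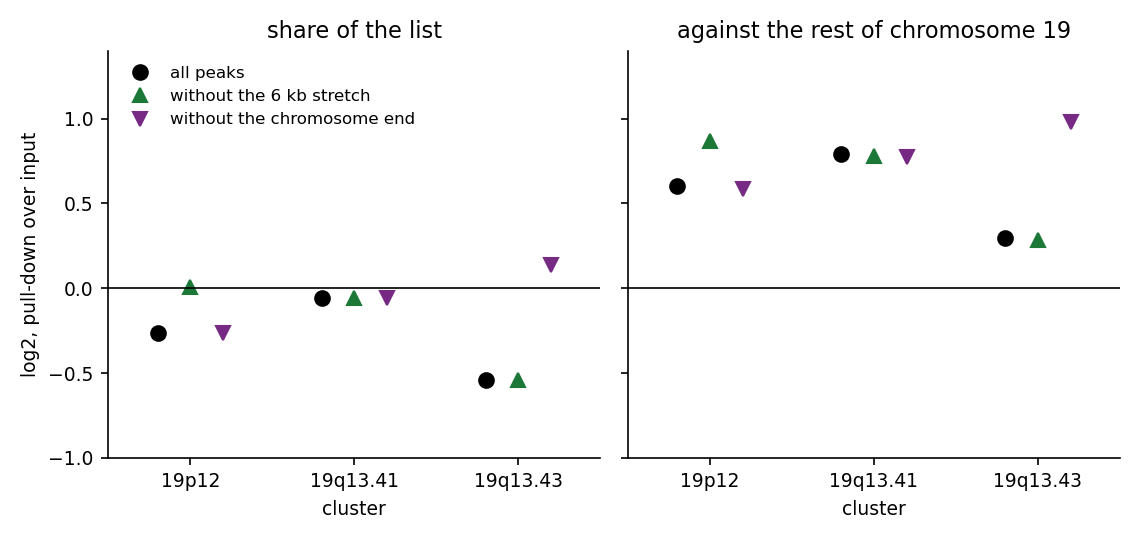
Log2 ratio, pull-down over input (y axis), of each cluster (x axis) from the limma fits of the share of the list (left) and of the share relative to the rest of chromosome 19 (right). Black circles use all peaks, green triangles leave out the 6 kb stretch of 19p12 and purple triangles the chromosome end (the last 229 kb of 19q13.43). Without its own stretch, 19p12 is at 0.00 and 19q13.43 at 0.14 on the left, and they are at 0.87 and 0.98 on the right.

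The second comparison asked on which strand the peaks lay. In 19p12 the pull-down peaks were evenly divided, with 95 plus and 94 minus in replicate 1 and 106 plus and 102 minus in replicate 2. The input peaks leaned to the minus strand, with 21 plus and 55 minus in replicate 1 and 25 plus and 61 minus in replicate 2. The plus-strand share was thus 50.3% (43.2 to 57.3) and 51.0% (44.2 to 57.7) in the pull-downs, against 27.6% (18.8 to 38.6) and 29.1% (20.5 to 39.4) in the inputs, and the intervals of the groups did not touch. In 19q13.41 both groups leaned to the plus strand, at 63.6% and 63.0% in the pull-downs, against 75.0% and 77.4% in the inputs. In 19q13.43 the plus-strand share was 53.6% and 58.8% in the pull-downs, against 72.3% and 66.7% in the inputs. Outside the clusters it lay between 51.5% and 53.9% in all 4 libraries.

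The difference between the groups was 22.3 percentage points in 19p12, -12.9 in 19q13.41 and -13.3 in 19q13.43 (exact permutation p = 0.33 for each), so the pull-downs were nearer to equal strands in all 3 clusters. In lists cut to equal length these differences were 10.7, -5.06 and -26.9 points. A limma fit of log2 plus over minus peaks across all regions was added after the data had been seen. It called 0.0722% of 2769 regions (2 regions) and none of the clusters, with differences of 1.35 (SE 0.31, unadjusted p = 0.00339, adjusted p = 0.0706) in 19p12, -0.83 (SE 0.35, adjusted p = 0.187) in 19q13.41 and -0.81 (SE 0.34, adjusted p = 0.192) in 19q13.43. The 6 kb stretch is part of the minus-strand excess of the inputs. It held 34.5% and 24.6% of their minus-strand peaks in 19p12, against 9.57% and 10.8% in the pull-downs. Without it the plus-strand share of 19p12 was 52.8% and 53.8% in the pull-downs, against 36.8% and 35.2% in the inputs. In 19q13.43 without the last 229 kb, it was 52.8% and 58.1% in the pull-downs, against 60.9% and 57.9% in the inputs, where the groups overlapped. Because both stretches were chosen for their input peaks, the choice favours the direction of these shifts.

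**Figure D4:**
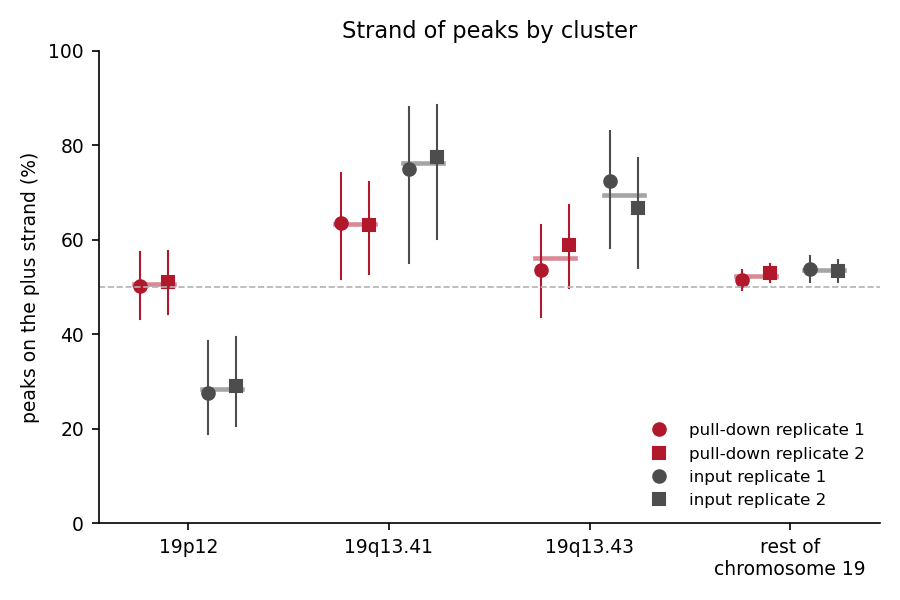
Share of peaks on the plus strand in percent (y axis) in the 3 clusters and in the rest of chromosome 19 (x axis), with 95% Wilson intervals as vertical lines and group means as bars. Red marks pull-downs and grey inputs, with circles for replicate 1 and squares for replicate 2. In 19p12 the inputs are at 27.6% and 29.1%, below the pull-downs at 50.3% and 51.0%, and the dashed line marks 50%.

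Split by strand, 19p12 held opposite differences. Its plus strand took 9.71 ± 0.26 of every 10000 pull-down peaks and 6.53 ± 0.87 of every 10000 input peaks, a log2 ratio of 0.57. Its minus strand took 9.48 ± 0.44 in the pull-downs, against 16.6 ± 3.0 in the inputs, a log2 ratio of -0.81 (SD, n = 2 each, exact permutation p = 0.33 for each). In 19q13.43 it was the plus strand that was lower in the pull-downs, with 5.85 ± 0.62 against 10.5 ± 1.5 in the inputs, and the minus strand took 4.54 ± 0.20 and 4.58 ± 0.22, which overlapped. In 19q13.41 the plus strand took 4.79 ± 0.59 in the pull-downs, against 5.90 ± 0.32 in the inputs, and the minus strand 2.78 ± 0.39 and 1.85 ± 0.27.

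Runs of peaks on a single strand were measured as the share of consecutive peaks, at most 10 kb apart, that lay on the same strand. In 19p12 it was 65.2% and 65.5% in the pull-downs (of 69 and 87 pairs), against 95.8% and 73.1% in the inputs (of 24 and 26 pairs). That difference of -19.1 percentage points was -7.71 without input replicate 1 and -0.97 without the 6 kb stretch. In 19q13.43 it was 52.5% and 55.7% in the pull-downs, against 84.6% and 72.4% in the inputs, a difference of -24.4 points that was 2.70 without the chromosome end. Both stretches were chosen for their input peaks, which lie there mostly or only on 1 strand. Leaving them out therefore favours a smaller difference, and these shifts are a description. In 19q13.41, with only 7 and 11 input pairs, it was 61.5% and 69.6% in the pull-downs, against 71.4% and 81.8% in the inputs. This was not particular to the clusters. Outside them the share was 62.0% and 63.2% in the pull-downs, against 80.8% and 77.8% in the inputs, and over the whole lists 62.7% and 64.2% against 75.0% and 73.9%. The exact permutation p was 0.33 in each interval.

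The third comparison concerned peak width. Wide peaks, of at least 50 bases, were rarer in the clusters than in the rest of chromosome 19, above all in the inputs. In 19p12 they made up 12.7% (8.68 to 18.2) and 12.98% (9.08 to 18.2) of pull-down peaks, against 11.8% (6.36 to 21.0) and 10.5% (5.60 to 18.7) of input peaks. In 19q13.41 they made up 7.58% and 14.1% in the pull-downs, against 25.0% and 29.0% in the inputs. In 19q13.43 the groups overlapped, at 22.7% and 23.5% in the pull-downs, against 21.3% and 33.3% in the inputs. In the rest of chromosome 19 wide peaks were 22.3% and 25.2% of pull-down peaks, against 43.6% and 44.9% of input peaks. Over the whole lists, with all chromosomes, they were 16.2% and 19.2% in the pull-downs, against 22.1% and 26.6% in the inputs. The 3 clusters together were at 14.5% and 16.2% in the pull-downs, against 17.0% and 21.5% in the inputs. In each library that was nearer to the whole list than the rest of chromosome 19 was.

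The wide share of 19p12 was lower than that of the rest of the chromosome in the pull-downs, with differences of -9.59 and -12.2 percentage points, and in the inputs, with -31.8 and -34.4 points, that is in 4 of 4 libraries (two-sided exact sign-flip permutation p = 0.125, the smallest that 4 libraries allow). For 19q13.41 the differences were -14.7 and -11.1 points in the pull-downs, against -18.6 and -15.8 in the inputs, again in 4 of 4 libraries with the same p. In 19q13.43 it was lower in 3 of 4, the exception being pull-down replicate 1, which was 0.39 points higher (exact sign-flip permutation p = 0.25). Median widths were 13 and 14.5 bases in the pull-downs, against 13 and 12.5 in the inputs in 19p12, and 17 and 19 against 35 and 39 bases outside the clusters. In 19q13.41 the medians were 16 and 17.5 against 19 and 18 bases, and in 19q13.43 they were 16 and 19 against 19 and 21.5 bases. Over the whole lists they were 15 and 15 in the pull-downs, against 14 and 16 bases in the inputs.

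**Figure D5:**
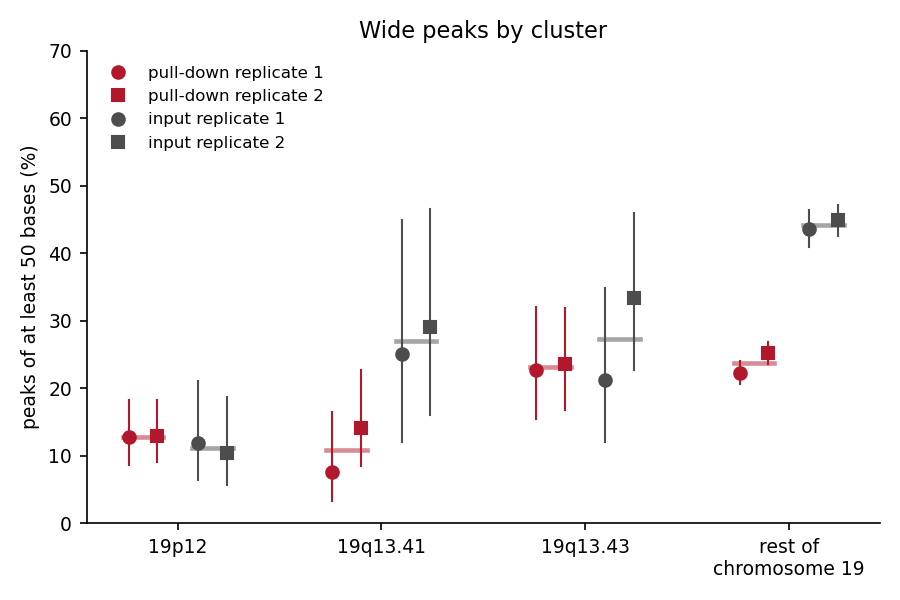
Share of peaks of at least 50 bases in percent (y axis) in the 3 clusters and in the rest of chromosome 19 (x axis), with 95% Wilson intervals as vertical lines and group means as bars. Red marks pull-downs and grey inputs, with circles for replicate 1 and squares for replicate 2. The inputs are at 43.6% and 44.9% outside the clusters and at 11.8% and 10.5% in 19p12.

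The wide input peaks of 19p12 were all on the minus strand, 9 in each input, with 0 among the 21 and 25 plus-strand peaks. Of those 9, the 6 kb stretch held 3 in each input. In the pull-downs the wide peaks of 19p12 lay on both strands, with 11 plus and 13 minus in replicate 1 and 13 plus and 14 minus in replicate 2. A limma fit of log2 wide over narrow peaks, added after the data had been seen, called 0.867% of 2769 regions and none of the clusters. Its differences were 0.19 (SE 0.65, adjusted p = 0.907) in 19p12, -1.64 (SE 0.64, unadjusted p = 0.0356, adjusted p = 0.222) in 19q13.41 and -0.31 (SE 0.55, adjusted p = 0.804) in 19q13.43.

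Peaks of different lists were matched where they shared 1 base or more of a strand. Of the peaks of pull-down replicate 1, 70.4% (63.5 to 76.4) were found again in replicate 2 in 19p12, 68.2% (56.2 to 78.2) in 19q13.41 and 58.8% (48.8 to 68.0) in 19q13.43, against 60.1% (58.0 to 62.2) outside the clusters. Of the peaks of input replicate 1, 78.9% (68.5 to 86.6), 79.2% (59.5 to 90.8) and 53.2% (39.2 to 66.7) were found again in input replicate 2, and 66.7% (64.1 to 69.2) outside the clusters. The 19p12 cluster was thus the most reproducible of the 3 in the pull-downs, but its interval in this direction overlaps those of the other clusters. Of the peaks of pull-down replicate 2, 64.4% (57.7 to 70.6) were found in replicate 1 in 19p12. In 19q13.41 it was 48.9% (38.9 to 59.0) and in 19q13.43 it was 47.9% (39.1 to 56.8). In that direction the intervals of 19p12 and 19q13.43 did not overlap. Input peaks of the clusters were found in the pull-downs more often than those outside them. Of the cluster peaks of input replicate 1, 59.2% (51.1 to 66.8) overlapped a peak of pull-down replicate 1, against 38.1% (35.5 to 40.8) outside, and for input replicate 2 in pull-down replicate 2 it was 62.1% (54.8 to 69.0) against 39.8% (37.5 to 42.1). In 19p12 these shares were 75.0% and 76.7%, and in 19q13.43 they were 38.3% and 45.0%, near the values outside the clusters. In the complete lists, which include all chromosomes, they were 66.2% and 64.5%.

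Peaks present in both pull-downs were merged to 133 sites in 19p12, 45 in 19q13.41 and 57 in 19q13.43. Of these, 69 (51.9%, interval 43.5 to 60.2), 27 (60.0%, 45.5 to 73.0) and 31 (54.4%, 41.6 to 66.6) overlapped no peak of either input. In the rest of the chromosome it was 51.2% (48.4 to 53.9) and in the whole genome 57.0%, and all 3 intervals included the share of the rest of the chromosome. The inputs shared 60, 19 and 25 sites, of which 8 (13.3%, 6.91 to 24.2), 8 (42.1%, 23.1 to 63.7) and 10 (40.0%, 23.4 to 59.3) had no pull-down peak, against 42.8% (39.6 to 46.2) of 857 in the rest of chromosome 19. Over the whole genome the share was 19.9%, which lies inside the interval of 19p12, and the rest of chromosome 19 was above it. These shares rest on lists of unequal length. In lists cut to equal length, the input-free share of 19p12 was 10.3% and the pull-down-free share 32.1%.

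By strand, of the 69 input-free pull-down sites of 19p12, 45 were on the plus and 24 on the minus strand (65.2% plus, 53.4 to 75.4), whereas of the 64 pull-down sites shared with an input 19 were on the plus and 45 on the minus strand (29.7% plus). This split follows from the strands of the input peaks, since a strand with fewer of them leaves more sites free, and is no separate result. In 19q13.41 both kinds were 66.7% plus, and in 19q13.43 they were 48.4% and 57.7% plus. Wide sites were 13 of 69, 3 of 27 and 7 of 31 of the input-free pull-down sites. Among input sites with no pull-down peak, wide ones were 0 of 8 in 19p12, 4 of 8 in 19q13.41 and 3 of 10 in 19q13.43, or 7 of 26 together (26.9%, 13.7 to 46.1), against 284 of 367 (77.4%, 72.8 to 81.4) in the rest of the chromosome.

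Single sites were ranked by the authors' deposited score within each list, whose meaning is not stated, so ranks serve only to order peaks of that list. The input-free pull-down site of 19p12 with the best mean rank was 17 bases wide, on the minus strand from 19954739 to 19954755, and ranked 4344 of 96061 and 7098 of 111256. Next came a plus-strand site of 31 bases from 21134908 to 21134938, ranked 5921 and 5785, which lies in the called higher region, and a minus-strand site of 19 bases from 23263889 to 23263907, ranked 12377 and 12456. In 19q13.41 the leading site was on the plus strand, 22 bases from 53309481 to 53309502, ranked 8591 and 8015. It was followed by sites from 53180531 to 53180554 on the plus strand and from 53916881 to 53916890 on the minus strand. In 19q13.43 the leading sites ran from 58085646 to 58085665 on the plus strand, ranked 9859 and 16966, from 58872159 to 58872247 on the minus strand and from 57285939 to 57285949 on the minus strand. The best single rank among these 9 sites was 4344.

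Input sites without a pull-down peak were ranked in the input lists. The first of 19q13.41 was 37 bases wide, on the plus strand from 53313060 to 53313096, and ranked 70 of 29386 and 38 of 42256 in the inputs, with 0 peaks in either pull-down. It lay 3557 bases from the leading input-free pull-down site of that cluster, on the same strand. The next, from 53407518 to 53407539 on the plus strand, ranked 1551 and 1472. In 19p12 such sites ran from 24361002 to 24361024 on the minus strand, ranked 386 and 1258, and from 20152502 to 20152526 on the plus strand, ranked 2153 and 2593. In 19q13.43 they ran from 58889640 to 58889654 and from 57884804 to 57884818, both on the minus strand, ranked 1613 and 4500 and 4702 and 1435.

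Sites present in all 4 lists numbered 46 in 19p12, 10 in 19q13.41 and 10 in 19q13.43. Their ranks hold within each list, and the pull-down lists are longer. In 19q13.41 the leading ones were on the plus strand, from 53109530 to 53109586 and from 53423728 to 53423773. The first ranked 1147 and 1424 in the pull-downs, against 1817 and 1958 in the inputs, and the second 1924 and 1364 in the pull-downs, against 1347 and 2540 in the inputs. In 19q13.43 the leading ones ranked much more unevenly. The site from 58913297 to 58913322 on the minus strand ranked 3570 and 30775 in the pull-downs, against 16452 and 1958 in the inputs, and that from 57993354 to 57993384 on the plus strand ranked 15274 and 26455 in the pull-downs, against 7772 and 15081 in the inputs.

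Along the clusters, the fullest window held a larger share of the input peaks than of the pull-down peaks. Windows were 100 kb on a single strand. In 19p12, 82 windows held a peak and 48 held an input-free pull-down site, with at most 5 in a window. The window with the most input peaks held 36 of 162 input peaks (22.2%), and the window with the most pull-down peaks 22 of 397 (5.54%). In 19q13.41 these shares were 8.86% for the pull-downs (14 of 158) and 23.6% for the inputs (13 of 55). In 19q13.43 they were 11.6% for the pull-downs (25 of 216) and 24.3% for the inputs (26 of 107). The input peaks were fewer, and how far that alone raises the share of the fullest window was not tested. Pull-down peaks in both replicates with 0 input peaks occurred in 21, 6 and 9 windows of 19p12, 19q13.41 and 19q13.43. The reverse, both inputs with 0 pull-down peaks, occurred in 0 windows of each, but the input lists were shorter.

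Windows were also ordered by their number of input-free pull-down sites. That choice favours pull-down over input peaks, so the values are a description. The windows with the most input-free sites in 19p12 were on the plus strand from 20700001 to 20800000, with 7 and 6 peaks in the pull-downs, against 1 in each input, and from 21200001 to 21300000, with 4 and 6 peaks in the pull-downs, against 0 in either input. The next was on the minus strand from 19900001 to 20000000, with 6 and 5 peaks in the pull-downs, against 2 and 1 in the inputs. In 19q13.41 the leading 3 windows all lay on the plus strand, from 52600001, 52800001 and 53500001, and listed 5 and 7, 3 and 4, and 6 and 8 peaks in the pull-downs, against 2 and 3, 1 and 1, and 1 and 4 in the inputs. In 19q13.43 they all lay on the minus strand, from 58300001, 57700001 and 57800001, and listed 6 and 5, 3 and 4, and 3 and 2 peaks in the pull-downs, against 1 and 3, 0 and 1, and 1 and 1 in the inputs.

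The windows with the most input peaks lay elsewhere in 19p12 and 19q13.43. A window full of input peaks is less likely to lead in input-free sites, so the rules of choice favour this separation. They also favour more input peaks in the windows below, whose values are a description. In 19p12 they were on the minus strand from 24100001, which holds the 6 kb stretch, with 10 and 12 pull-down peaks against 20 and 16 input peaks, and from 24200001, with 6 in each pull-down against 4 in each input. In 19q13.43 they were on the plus strand from 59000001, with 2 and 4 pull-down peaks against 15 and 11 input peaks, and from 58900001, with 3 and 5 against 5 and 7. In 19q13.41 the first was on the plus strand from 52700001, with 1 and 3 pull-down peaks against 6 and 7 input peaks, or 0.187 ± 0.117 against 1.85 ± 0.27 per 10000 listed peaks (SD, n = 2 each). This window was picked for its input peaks, which favours the direction of that difference, and no test is given. The second, from 52600001, was also the window with the most input-free sites of that cluster.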

How the data were processed

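CLIP-seq peaks of SAF-A in HCT116 cells were analysed from 4 lists, 2 pull-downs and 2 inputs. The authors deposited 1 list per sample, with positions in bases and a score of at least 10 whose meaning is not stated. Per the submitters' processing notes, STAR, featureCounts and GRCh38 were used. The peak caller is not given in the sources used here, and positions fit GRCh37. Chromosome lengths and the gap were taken from general knowledge. Scores served to rank peaks of 1 list, as a minimum, or as a median beside that of the same whole list.

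Members, comparisons and named sites were chosen by rules with earlier results of these data known. Per cluster, the rules named 3 input-free pull-down sites, 2 pull-down-free input sites and 2 sites in all 4 lists by mean rank, 3 and 2 windows of 100 kb by number, all 1 Mb regions, and the most extreme called 250 kb regions. A region entered a fit where its 4 lists averaged 10 peaks or more. Fits used limma 3.58.1 (lmFit, eBayes with trend) in R 4.3.3 on log2 values with 0.5 added to each count of peaks, with Benjamini-Hochberg adjustment over all regions. Single values were compared by exact permutation tests in scipy 1.17.1. The limma step was run on simulated lists in which sites were listed independently. That does not cover dependence between neighbouring peaks, so no conclusion on the calls is drawn from it. Alternatives covered list length, score, width, edges, minimum, added count, centring, left-out samples and a replicate block. The correlation of same-numbered deviations was 0.05 over 2776 regions.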

Additional observations from a re-analysis of the deposited data

How the results depend on the processing

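Over 363 alternatives to the values that compare the clusters, 295 were counted as kept and 30 as reversed. Kept means the same direction, the same side of the threshold where there was one, or a value within the allowed spread. Some alternatives could not change a value, so the count does not measure robustness. A replicate block leaves differences in strand share, wide share and neighbour agreement as they were. Leaving out a stretch of a cluster leaves these differences in the other clusters, and a minimum number of peaks leaves the log2 ratios of the clusters. Where no cause is named, it was not tested. With lists of equal length, the log2 ratio of the 19q13.41 share was 0.030 (0.015 in limma, adjusted p = 0.983) and that of 19q13.43 relative to the rest of chromosome 19 was -0.064 (-0.12 in limma, adjusted p = 0.707). The wide-share difference of 19p12 was -2.27 points and its neighbour agreement 2.77 points. Calls were then 0 lower and 0 higher at 1 Mb, and 1 lower at 250 kb, among fewer peaks, input-free shares were 10.3% in 19p12 and 25.0% in 19q13.41, and pull-down-free shares 32.1% in 19p12 and 69.6% in 19q13.43. With a score of at least 20, the 19q13.41 share was at 0.078 (limma 0.029), 19q13.43 at -0.44 (adjusted p = 0.100) and 19p12 relative to its chromosome at 0.44 (adjusted p = 0.166). Wide-share differences were -6.31 points in 19p12 and 3.69 in 19q13.41, with 0 calls higher at 1 Mb and 1 lower at 250 kb. With narrow peaks only, the 19q13.41 share was at 0.13 (limma 0.10), 19q13.43 at -0.58 (adjusted p = 0.0602), 19q13.43 relative to its chromosome at -0.0046 (limma -0.046), 19p12 at 0.13, and neighbour agreement in 19q13.41 at 33.0 points, with 1 lower and 0 higher at 1 Mb and 1 lower at 250 kb. With wide peaks only, 19p12 was at 0.36 (limma 0.35), 19q13.43 at -0.31 (adjusted p = 0.344) and at 0.98 relative to its chromosome, with 0 cluster regions called at 1 Mb or 250 kb. Without the 6 kb stretch, the 19p12 share was at 0.0092 (limma 0.0048). Without the chromosome end, 19q13.43 was at 0.15 (limma 0.14), at 0.98 relative to its chromosome and at 2.70 points of neighbour agreement, with 2 lower at 250 kb. With cluster edges 200 kb inward, 19q13.43 was at 0.025 (limma 0.0092), and at 0.86 relative to its chromosome. With edges 200 kb outward, the wide-share difference of 19p12 was -3.81 points. Adding 2 to each count left 0 higher at 1 Mb. At 250 kb, a mean of at least 20 peaks left 1 lower, and no minimum gave 7 lower and 3 higher. When each sample was left out in turn, the remaining lone sample being assumed to vary like the rest, the log2 ratio of the 19q13.41 share ran from -0.174 to 0.093. In limma the shares ran from -0.437 to -0.090 in 19p12, from -0.188 to 0.077 in 19q13.41 and from -0.631 to -0.456 in 19q13.43, and relative to the chromosome from 0.473 to 0.727 in 19p12 and from 0.687 to 0.893 in 19q13.41. The wide-share difference of 19q13.43 ran from -10.2 to 1.83 points and its log2 wide over narrow difference from -0.732 to 0.122. Calls in the clusters ran from 0 to 1 higher at 1 Mb and, at 250 kb, from 2 to 3 lower and 0 to 1 higher. With a replicate block (the samples share only numbers), 19q13.43 was at -0.54 (adjusted p = 0.00176), and no call of a cluster changed. Depth of reads is unknown, so the small input lists set the precision.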
